A study of Homo sapiens with 12 samples.

Results

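The enzymes described here modify drugs, other foreign compounds and many hormones in liver. The set was a list of 47 named genes of the phase 1 and phase 2 reactions, matched by Entrez gene number in the tables of all 12 libraries. Rows were found for 46 of them among 23922 genes, and CYP4F12 was not analysed here. The list held 17 cytochrome P450 genes, POR, 12 other phase 1 enzymes, 6 UDP-glucuronosyltransferases, 3 sulfotransferases, 6 glutathione transferases and 2 arylamine N-acetyltransferases. Transcript levels came from RNA sequencing of cells derived from H9, a single established human embryonic stem cell line, during differentiation toward hepatocytes. At day 7, where the cells are labelled hepatoblasts, and at day 19, where they are labelled hepatocytes, separate cells had received 0.1% DMSO (dimethyl sulfoxide, the control), 30 nM T3 (triiodothyronine) or 30 nM T4 (thyroxine). T4 is the form that carries an additional iodine and T3 the form that binds the nuclear receptors more tightly. Each of these 6 groups had 2 libraries. No label ties the replicates to separate cultures, so p-values reflect only the spread between libraries, which may be technical. The time at which hormone was given, and the vehicle of the hormone-treated cells, were not stated.

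In phase 1, cytochrome P450 enzymes of the endoplasmic reticulum oxidise their substrates with electrons passed on by POR, while esterases, dehydrogenases, flavin monooxygenases, epoxide hydrolase and aldehyde oxidase open other routes. In phase 2, a glucuronic acid, sulfate, glutathione or acetyl group is joined to the product, which can then leave the cell. Fetal and adult human liver use different members of several of these families: CYP3A7 and GSTP1 are known as fetal forms, and CYP3A4, CYP2E1, ADH4, GSTA1 and GSTA2 as forms that gain weight after birth.

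Libraries held 18363549 to 19306181 expected counts, and 18101 genes passed the expression filter and were tested. Levels are given as CPM (expected counts per 1000000 after scaling between libraries) for the 2 libraries of a group in turn, and as FPKM (the authors' values per transcript length and library total) where genes are compared with each other. A gene was called at an adjusted p of at most 0.05 in edgeR's quasi-likelihood test, and every adjusted p below comes from that fit over all tested genes. Of the members, 38 were tested. Of these 24 reached the filter's minimum of 0.537 CPM (before scaling) in both libraries of a day 7 group. The other 14 did so in a day 19 group only. The filter itself asked for any 2 libraries. Of the 14, CYP2B6, ADH4 and ALDH3A1 also reached the minimum in at least 2 day 7 libraries of different groups. The others of the 14 reached it at day 19 only and therefore had to be higher there. These 14 were CYP2A6, CYP2B6, CYP2E1, CYP3A4, CYP3A7, UGT1A1, UGT1A6, UGT2B7, UGT2B10, SULT1E1, NAT2, CES1, ADH4 and ALDH3A1. The other 8 with rows (CYP2C19, CYP4F2, CYP4F3, UGT2B4, UGT2B15, ADH1A, ADH1B and ADH1C) never exceeded 9.93 expected counts in a library. The 10 listed markers of mature hepatocytes summed to 5028 to 5064 CPM at day 7 in DMSO and to 31440 to 32640 at day 19. At day 19 the same sum was 2466 to 3244 under T3 and 5754 to 6327 under T4. The T3 sum thus lay below that of the day 7 control. Gene by gene from day 7 to day 19 under T3, 4 of the 10 rose and 4 fell, with a median of 0.30. The 7 listed hepatoblast markers summed to 2322 to 2342 CPM at day 7 in DMSO and to 35570 to 38330 at day 19, where 4 rose and 3 fell. At day 19 they summed to 2933 to 3182 under T3 and 4096 to 4390 under T4. In bulk RNA, fewer cells of a type and less RNA per cell cannot be told apart.

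Glutathione transferases made up most of the enzyme transcripts in every library. Per length, they held 91.1% and 91.2% of the summed FPKM of all members in the day 7 DMSO libraries and 83.3% and 84.2% at day 19. GSTP1 alone accounted for 64.9% and 64.2% at day 7. At day 19 its share was 25.5% and 26.9%, and GSTA1 and GSTA2 together held 45.8% and 45.1%. Cytochrome P450 transcripts were a small part throughout, at 1.61% and 1.54% of the sum in DMSO at day 7 and 1.07% and 0.966% at day 19. Under T3 at day 19 the P450 share was 2.81% and 2.49% and the glucuronidation share 2.12% and 2.29%, against 0.254% and 0.225% for glucuronidation in DMSO. The members as a whole took 0.157% and 0.154% of all counts at day 7 in DMSO and 0.414% and 0.448% at day 19. With hormone at day 19 the share was 0.205% and 0.262% under T3 and 0.299% in both T4 libraries. No day 19 hormone library thus overlapped the DMSO libraries of that day.

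**Figure D1:**
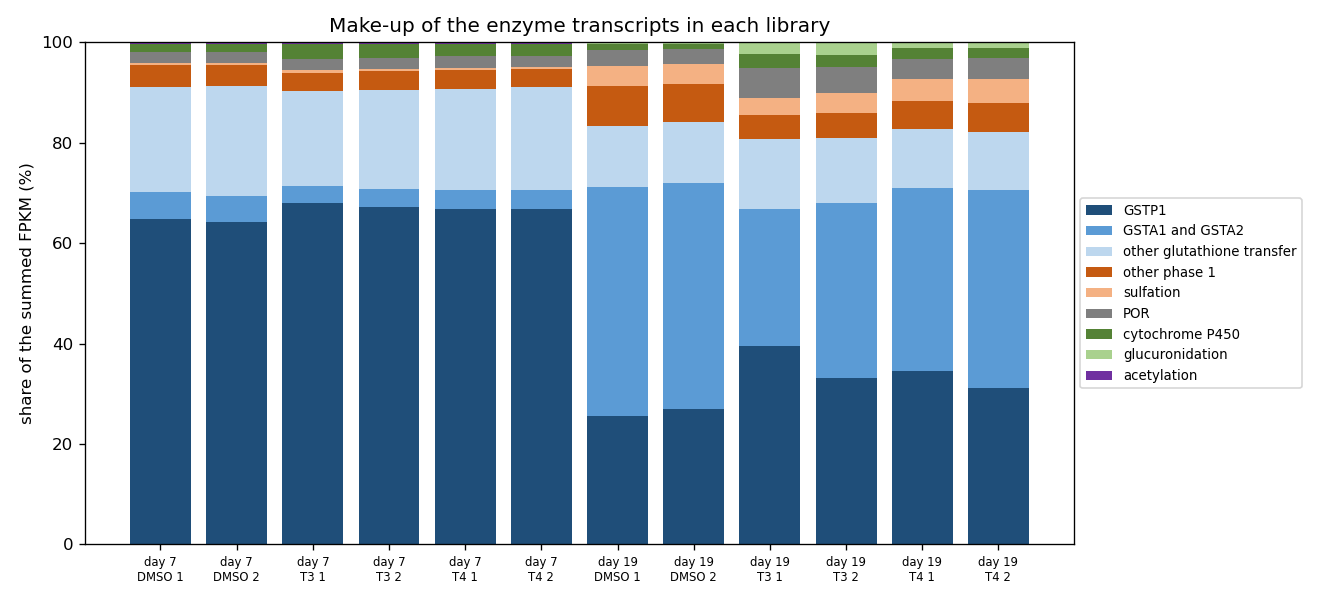
Stacked bars give the share (%) of the summed FPKM of the members that each enzyme class held in each of the 12 libraries, with GSTP1 and the pair GSTA1 and GSTA2 drawn apart from the other glutathione transferases. GSTP1 fills 64.9% and 64.2% of the day 7 DMSO bars, and GSTA1 with GSTA2 45.8% and 45.1% of the day 19 DMSO bars.

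Between day 7 and day 19 without hormone, most tested enzymes rose, and conjugating enzymes were among those that rose most. Of the 38 tested members 29 were higher at day 19 and 4 lower, where 37.6% of all tested genes were higher and 34.9% lower. Their median log2 fold change was 2.38, against -0.00 over all genes. Among the 24 members that reached the filter's minimum in a day 7 group, 16 were higher and 4 lower, with a median of 2.0. Markers of other cell types moved with this step. The intestinal sum was 66.3 to 66.5 CPM at day 7, with SI and MUC2 at 0, and 2056 to 2211 at day 19, with MUC2 at 0. The mesenchyme sum was 722 to 725 CPM at day 7 and 6823 to 7013 at day 19. All 8 tested intestinal and 8 of 9 mesenchyme markers rose, and their part in the enzyme results was not tested.

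Among phase 1 enzymes the electron donor gave the smallest p. POR, the reductase that serves all microsomal P450 enzymes, stood at 64.9 and 66.9 CPM at day 7 and 298 and 300.2 at day 19, a rise of 4.54-fold (standard error on the log2 scale 0.0544, adjusted p = 1.04e-13). EPHX1, the microsomal epoxide hydrolase, went from 56.8 and 52.2 to 418 and 442 CPM, or 7.89-fold (adjusted p = 2.41e-12). For both genes the replicates differed far less than the days. Of 13 tested P450 genes 9 rose and 1 fell, where 37.6% of all tested genes rose and 34.9% fell. Among the 9, CYP2A6, CYP2E1, CYP3A4 and CYP3A7 reached the filter's minimum at day 19 only, so a higher level there was built in. CYP2A6, which oxidises nicotine, had 0 and 0.144 CPM at day 7 and 6.36 and 6.32 at day 19 (log2 fold change 6.33, 95% interval 5.06 to 7.60). The single P450 that fell was CYP2D6, which oxidises codeine and many antidepressants, at 1.49 and 1.44 CPM at day 7 and 0.242 and 0 at day 19 (-3.53, adjusted p = 0.00407). CYP2S1, a P450 found mostly outside the liver, was not called, at 37.9 and 37.8 CPM at day 7 and 42.2 and 37.6 at day 19 (interval -0.07 to 0.22), though limma on FPKM put it at -0.33 (adjusted p = 0.000842). Of 9 tested other phase 1 enzymes 7 rose, among them the carboxylesterase CES1 by 5.68 and the alcohol dehydrogenase ADH4 by 4.41 on the log2 scale. CES1 reached the filter's minimum at day 19 only, so a higher level there was built in for it. CES2, a relative of CES1, fell by 0.37 on the log2 scale (adjusted p = 0.000175).

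In phase 2, all 3 sulfotransferases and all 4 tested glucuronosyltransferases rose, beside 37.6% of all tested genes. The 4 glucuronosyltransferases, SULT1E1 and NAT2 reached the filter's minimum at day 19 only, so a higher level there was built in for them. SULT2A1, which sulfates dehydroepiandrosterone and bile acids, was at 1.83 and 1.44 CPM at day 7 and 81.2 and 86.2 at day 19, 51-fold higher (adjusted p = 2.98e-12). SULT1A1, the main phenol sulfotransferase, went from 5.49 and 7.26 to 142 and 152 CPM, 23-fold (adjusted p = 2.88e-12). UGT1A1, which conjugates bilirubin, had 0 and 0.337 CPM at day 7 and 14.3 and 13.7 at day 19, a log2 fold change of 6.32. UGT2B10, at 0 in both day 7 libraries and at 1.03 and 0.729 CPM later, was at least 12.2-fold higher, taking 3 counts over the group as the floor. NAT1 and NAT2, the arylamine acetyltransferases, went opposite ways: NAT1 fell by 0.75 on the log2 scale and NAT2 rose by 2.77 (adjusted p = 0.00516 and 4.26e-05).

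**Figure D2:**
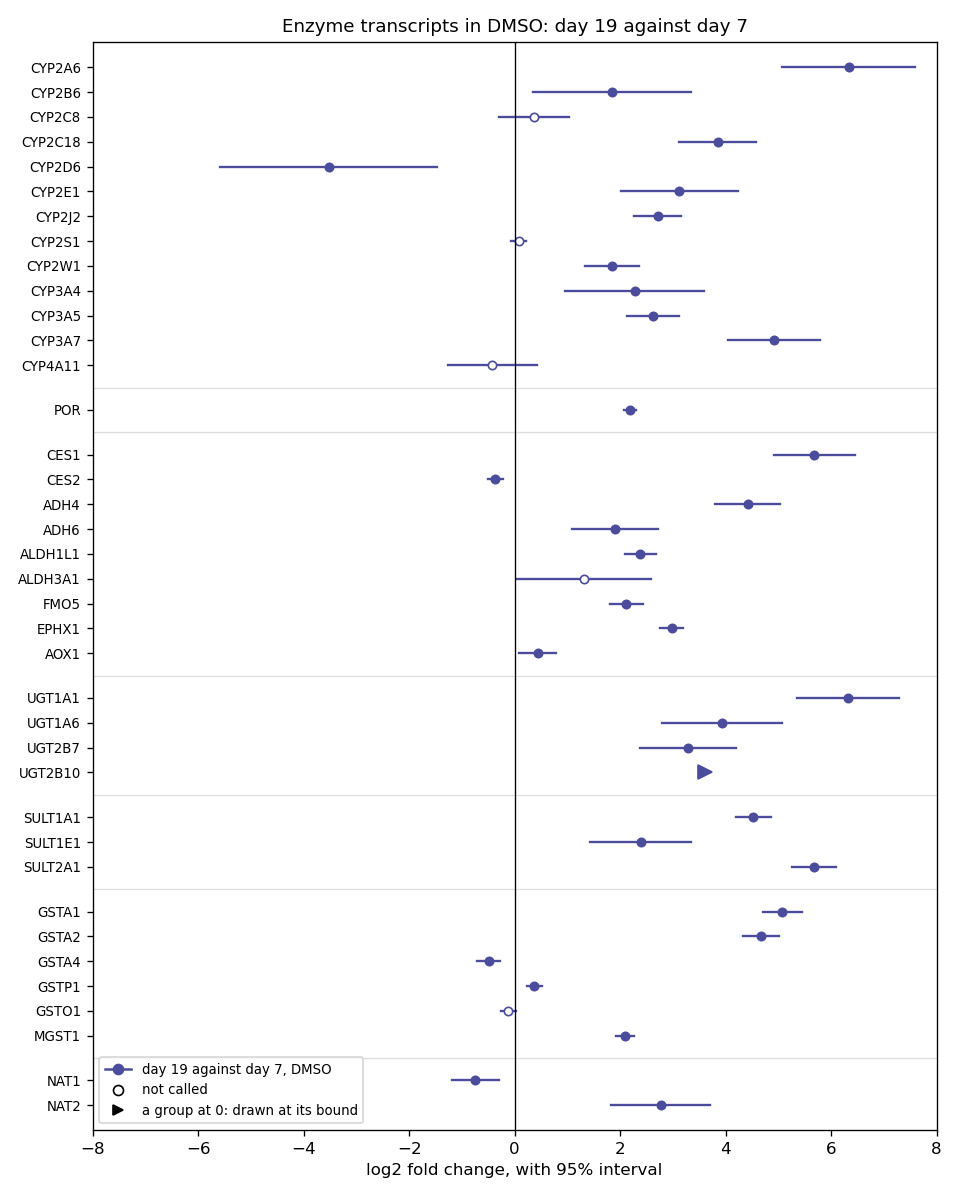
Points give the log2 fold change of day 19 over day 7 in DMSO for the 38 tested members, grouped from top to bottom as P450 enzymes, POR, other phase 1, glucuronidation, sulfation, glutathione transfer and acetylation; lines are 95% intervals, open points were not called, and the triangle marks UGT2B10 at its lower bound because it was at 0 at day 7. Filled points lie to the right of 0 for 28 members, with the triangle as the 29th higher member, and to the left for 4.

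The CYP3A genes hold a fetal and an adult form. They lie side by side on chromosome 7: CYP3A5 at 99648194 to 99679996, CYP3A7 at 99705036 to 99735196 and CYP3A4 at 99756967 to 99784184 (GRCh38). At day 7 CYP3A7 and CYP3A4 had only 4 and 5 expected counts over both DMSO libraries, which allows no ratio. At day 19 in DMSO, CYP3A7 was at 1.01 and 1.5 FPKM and CYP3A4 at 0.21 and 0.17, so the fetal form was 4.81 and 8.82 times as abundant in the respective libraries. Of the counts of the pair, 102 of CYP3A7 and 21 of CYP3A4, the fetal form held 82.9% (95% Clopper-Pearson interval 75.1% to 89.1%, counting error only). CYP3A5, a form expressed before and after birth, exceeded both at 6.79 and 7.11 FPKM. Of its 205 and 219 expected counts, a short transcript of 1105 bases was assigned 94.2 and 89.5, and a noncoding transcript 60.0 and 69.7. Both fetal and adult forms rose from day 7, CYP3A7 by 4.91 (interval 4.04 to 5.79) and CYP3A4 by 2.27 (0.95 to 3.60) on the log2 scale. Both reached the filter's minimum at day 19 only, CYP3A4 in 1 group there, so a higher level at day 19 was built in. Without the first day 7 library the CYP3A4 call ended (1.62, adjusted p = 0.0544). CYP3A7 overlaps a readthrough transcript and ZSCAN25, CYP3A5 also overlaps ZSCAN25, and the strand of counting is not given in the sources used here.

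Under hormone at day 19 the 3 genes were called differently, though the differences between them were not tested. CYP3A7 rose under both hormones, from 2.48 and 3.7 CPM in DMSO to 6.77 and 7.68 under T3 (2.33-fold, standard error on the log2 scale 0.205, adjusted p = 0.000149) and 6.85 and 6.54 under T4 (2.16-fold, adjusted p = 0.000501). CYP3A5 had 12.4 and 13.3 CPM in DMSO, 5.63 and 8.38 under T3 and 11 and 10.1 under T4. It fell by 0.87 on the log2 scale under T3 (adjusted p = 0.00184) and was not called under T4 (-0.29, interval -0.69 to 0.12). CYP3A4 had 0.666 and 0.547 CPM in DMSO, 0.659 and 1.05 under T3 and 0.571 and 0.625 under T4, and was not called under either (log2 intervals -0.47 to 1.45 and -1.03 to 0.99). The FPKM ratio of CYP3A7 to CYP3A4 was 13.6 and 10.2 under T3 and 16.0 and 13.3 under T4, above both DMSO values in every hormone library. CYP3A7 stood at 0.149 and 0.211 of CYP3A5 in DMSO, at 0.957 and 0.659 under T3 and at 0.483 and 0.504 under T4. With the reads of the CYP3A genes summed, neither T3 (-0.08, adjusted p = 0.697) nor T4 (0.11, adjusted p = 0.574) was called, an alternative chosen after seeing the data.

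**Figure D3:**
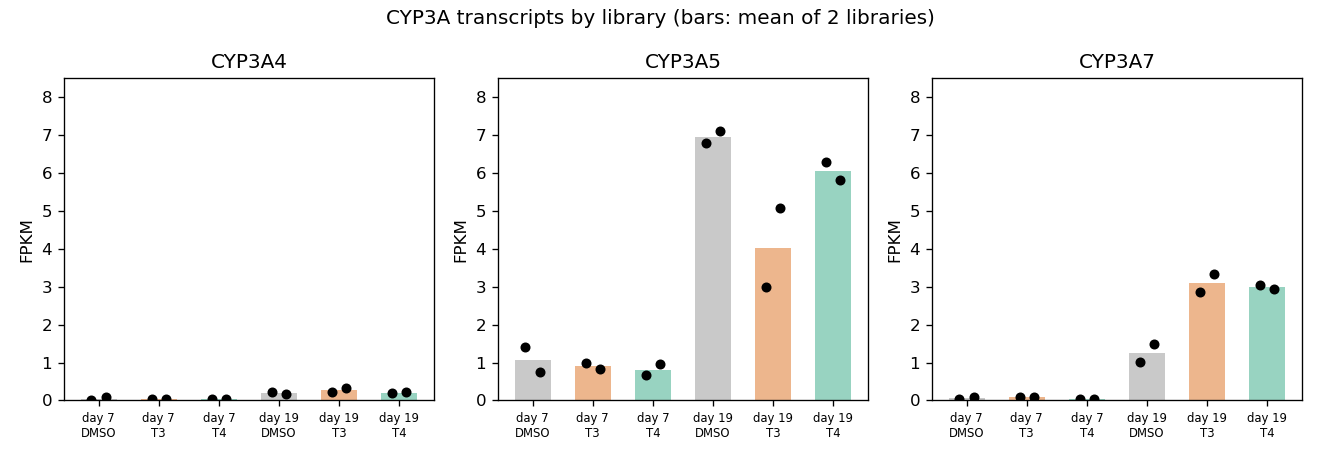
Bars give the mean FPKM of CYP3A4, CYP3A5 and CYP3A7 in each of the 6 groups and black points the 2 libraries, on axes of the same height. At day 19 both CYP3A7 points of either hormone lie above the DMSO points of 1.01 and 1.5 FPKM, while CYP3A4 is at most at 0.33 FPKM in any library.

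The stretches just before the start sites of the fetal and the adult CYP3A gene are shown because CYP3A7 was the more abundant of the pair and was called under hormone where CYP3A4 was not. Each runs 5′ to 3′ over the 190 bases before the start on the minus strand (RefSeq, GRCh38.p14), CYP3A7 at chr7:99735197-99735386 and CYP3A4 at chr7:99784185-99784374, with matches to the motifs searched in capitals.
CYP3A7: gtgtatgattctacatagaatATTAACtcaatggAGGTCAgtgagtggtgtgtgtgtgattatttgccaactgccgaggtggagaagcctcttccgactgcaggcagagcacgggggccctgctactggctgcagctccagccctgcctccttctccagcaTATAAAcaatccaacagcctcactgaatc
CYP3A4: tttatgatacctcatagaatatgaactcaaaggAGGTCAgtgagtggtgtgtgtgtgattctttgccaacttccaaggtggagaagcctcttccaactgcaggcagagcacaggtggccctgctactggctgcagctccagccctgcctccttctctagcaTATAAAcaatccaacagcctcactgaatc
The pair was identical at 177 of 189 aligned bases (93.7%). Both held the nuclear receptor half-site AGGTCA, 156 bases before the start in CYP3A7 and 157 in CYP3A4, and a TATAAA box 29 bases before it. The motif GTTAAT was found in CYP3A7 alone, on the opposite strand and so printed as ATTAAC, 169 bases before the start. Each motif was searched on both strands of the window from 250 bases before to 50 bases after the start, as were the forkhead motif TGTTTAC and the antioxidant response core TGACNNNGC, which neither gene held. Over 35116 such windows of all genes, 13.83% held AGGTCA, 6.88% GTTAAT and 11.53% TATAAA, against 25.58%, 25.58% and 39.53% of the 43 windows found for 36 members. The shares of TGTTTAC were 3.42% and 9.3%, and of TGACNNNGC 13.35% and 18.6%. A match to such short motifs describes the letters and is not a measured site.

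The glutathione transferases also include a fetal form and forms of adult liver. GSTP1, the form that prevails in fetal liver, was at 776 and 754 CPM at day 7 in DMSO and 921 and 1062 at day 19, 1.3-fold higher (adjusted p = 0.000193). That small rise depended on the unit: with limma on FPKM the log2 fold change was -0.03 and not called. GSTA1, which prevails in adult hepatocytes, went from 22.9 and 23.2 to 739 and 811 CPM, 33.6-fold (standard error on the log2 scale 0.171, adjusted p = 2.28e-12). GSTA2 went from 63.7 and 59.8 to 1524 and 1629.5 CPM, 25.5-fold (adjusted p = 2.78e-12). The FPKM ratio of GSTP1 to GSTA1 and GSTA2 together was 12.2 and 12.4 at day 7 and 0.558 and 0.597 at day 19. Of the other 3 soluble or membrane forms, MGST1 of the microsomes rose by 2.09, GSTA4, which detoxifies 4-hydroxynonenal, fell by 0.50, and GSTO1 was not called (-0.12, interval -0.26 to 0.02).

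GSTA1 and GSTA2 are near copies on chromosome 6, and reads can be divided between them by estimate only. The 190 bases before their start sites (minus strand, GRCh38.p14), GSTA1 at chr6:52803817-52804006 and GSTA2 at chr6:52763476-52763665, show how alike the pair that moved together is. Capitals again mark motif matches.
GSTA1: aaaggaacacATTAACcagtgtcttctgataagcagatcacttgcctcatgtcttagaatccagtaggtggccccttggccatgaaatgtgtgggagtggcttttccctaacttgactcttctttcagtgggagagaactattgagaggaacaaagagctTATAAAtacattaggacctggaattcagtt
GSTA2: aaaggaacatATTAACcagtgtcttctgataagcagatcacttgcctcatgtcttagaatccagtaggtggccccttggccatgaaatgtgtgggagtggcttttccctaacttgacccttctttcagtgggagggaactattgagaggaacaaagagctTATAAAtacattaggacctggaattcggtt
They were identical at 186 of 190 bases (97.9%), and each held GTTAAT on the opposite strand 180 bases before the start and TATAAA 30 bases before it. With the reads of GSTA1 and its relatives summed, the rise between the days was 4.79 on the log2 scale, between the values of the single genes.

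Of the listed alcohol dehydrogenases only ADH4 and ADH6 were abundant enough to be tested. ADH1A, the class I form of fetal liver, had at most 1.18 expected counts in a library, and ADH1B and ADH1C, which are known to follow it, did not exceed 5.58 and 1. No level could be compared at this depth, where a group at 0 allows up to 0.091 CPM. ADH4, an adult liver form, was at 0.482 and 0.337 CPM at day 7 and 8 and 9.72 at day 19 (adjusted p = 3.16e-09). CYP2E1, the ethanol-oxidising P450 that appears mainly after birth, was at 0.193 and 0.144 CPM at day 7 and 1.27 and 1.76 at day 19, a log2 fold change of 3.12 (interval 2.01 to 4.24). CYP2E1 reached the filter's minimum at day 19 only, so a higher level there was built in for it. ADH4 overlaps an uncharacterised gene, so its reads may include that gene.

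At day 7 few of these enzymes were called under hormone, near the share of all tested genes, and the count depended on the fit. Among those called, CYP2S1 stood out by size. Of 38 tested members 3 were higher and 1 lower under T3, beside 9.43% and 6.54% of all tested genes. CYP2S1 had 37.9 and 37.8 CPM in DMSO and 98 and 95.8 under T3, 2.56-fold higher (standard error on the log2 scale 0.0646, adjusted p = 6.83e-09). No library of the groups overlapped. POR was at 80.4 and 76.5 CPM under T3 against 64.9 and 66.9 (1.19-fold, adjusted p = 0.0064), and GSTP1 at 906 and 901 against 776 and 754 (1.18-fold, adjusted p = 0.0289). GSTA2 fell, with 41.9 and 42.7 CPM against 63.7 and 59.8 (log2 fold change -0.55, adjusted p = 0.0292). Its call ended when the reads of GSTA1 and its relatives were summed (-0.40, adjusted p = 0.0873). Without any one of the 4 libraries compared, 1 or 2 members were called, CYP2S1 each time. GSTA2 and GSTP1 were then not called in any case (adjusted p = 0.094 to 0.158 and 0.107 to 0.178), and POR was not without DMSO replicate 1 (0.0797) or T3 replicate 1 (0.0823).

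Under T4 at day 7, CYP2S1 was the only member called, beside 3.9% of all tested genes higher and 2.52% lower. It had 69.7 and 69.5 CPM, 1.84-fold over DMSO (adjusted p = 2.06e-06). The T3 and T4 comparisons share the DMSO libraries. POR (75.6 and 73 CPM, log2 fold change 0.17, interval 0.06 to 0.29) and GSTA2 (45.1 and 42.8 CPM, -0.49, -0.83 to -0.15) were not called. A fit to the day 7 libraries alone called 8 members under T4, 4 higher and 4 lower, beside 3460 of 17203 tested genes, 54.7% of these higher. Under T3 the same fit called 6 members, 4 higher and 2 lower, beside 5328 genes, 52.7% of these higher. The pluripotency marker sum moved beside CYP2S1 at day 7, at 1494 to 1520 CPM in DMSO, 2600 to 2651 under T3 and 2198 to 2224 under T4, with 5 of 6 markers higher under each hormone. The airway and gastric sum was 63.7 to 69.2, 125 to 127 and 109 to 112 CPM in the same order (1 of 5 tested markers higher under each, GKN1 at 0 throughout). Under T3, 5 of 10 mature hepatocyte, 5 of 7 hepatoblast and 4 of 5 endothelial markers fell, and under T4 3, 4 and 4. The part of these cells in the result was not tested.

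At day 19 more of the tested enzymes were lower than higher under hormone, and the higher ones included both UGT1A genes, CYP2C18, CYP2J2 and CYP3A7. Under T3, 23 of 38 tested members were lower and 7 higher, where 27.3% of all tested genes were lower and 25.1% higher. Under T4, 20 were lower and 6 higher, beside 21.9% and 21%. The median log2 fold change of the members was -0.73 under T3 and -0.56 under T4, against -0.03 and 0.00 over all tested genes. These medians were the same with SULT1E1 set to its bound. The T3 median was -1.26 without T3 replicate 2 and -0.56 without T3 replicate 1. SULT1E1, UGT2B7 and UGT2B10 passed the expression filter through the day 19 DMSO group alone, so that lower values under hormone were built in for them. ALDH3A1 reached the minimum in both libraries of that group alone, but also in DMSO replicate 2 and T3 replicate 1 of day 7. Without these 4, a count chosen after seeing the data, 19 of 34 members were lower and 7 higher under T3, with a median of -0.56. For T4 the same count was 16 lower and 6 higher, with a median of -0.31. All 10 mature hepatocyte markers fell under either hormone, with medians of -3.44 and -2.39. The summed intestinal markers were 422 to 500.5 CPM under T3 and 808 to 1028 under T4, against 2056 to 2211 in DMSO, and the summed cholangiocyte markers 3114 to 3141 and 2843 to 3186 against 1688 to 1711. Of these lists, 7 of 8 tested intestinal markers fell under each hormone, 7 and 6 of 9 mesenchyme markers fell (sums of 2724 to 3597 and 3692 to 4106 CPM), and 2 of 6 cholangiocyte markers rose while 2 fell. The part of these cell types in the enzyme results was not tested.

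**Figure D4:**
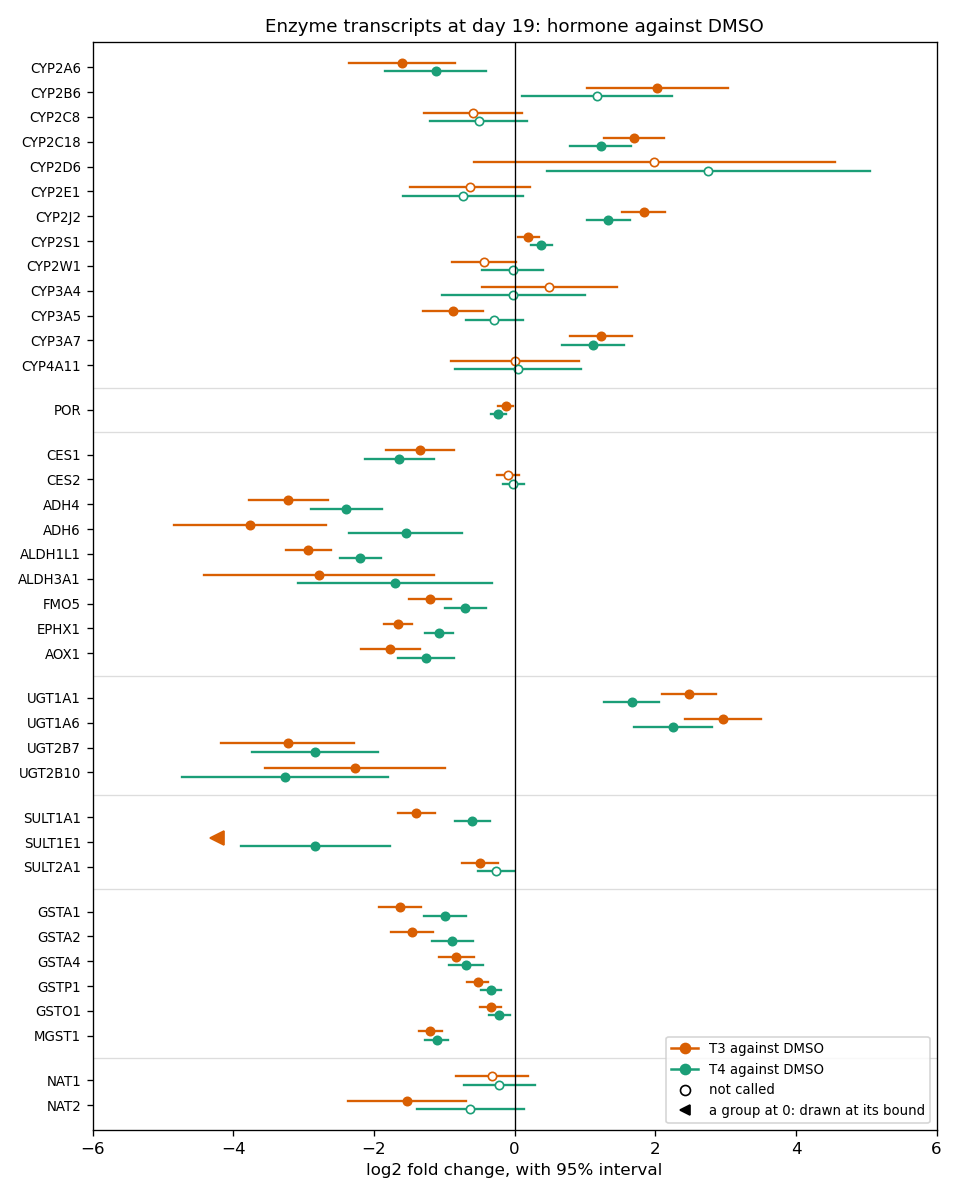
Points give the log2 fold change at day 19 of T3 (orange) and T4 (green) over the DMSO libraries that both share, for the 38 tested members in the order of the classes named in the text, with 95% intervals; open points were not called and the triangle marks SULT1E1, at 0 under T3, at its bound. All 6 glutathione transferases lie left of 0 under both hormones, and UGT1A1, UGT1A6, CYP2C18, CYP2J2, CYP2S1 and CYP3A7 lie right of it.

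Glutathione transfer was the class with the most uniform response, as all 6 members fell under each hormone. Of all tested genes, 27.3% were lower under T3 and 21.9% under T4. GSTA1 was at 193 and 308 CPM under T3 and 389 and 391 under T4 against 739 and 811 in DMSO. GSTA2, its neighbour, was at 445 and 701 under T3 and 819.6 and 889 under T4 against 1524 and 1629.5. Both genes were lower in all 4 hormone libraries, by 3.1-fold and 2.75-fold under T3 (adjusted p = 1.67e-07 and 4.45e-07) and 1.99-fold and 1.85-fold under T4 (adjusted p = 3.56e-05 and 9.27e-05). MGST1 was at 261 and 289.9 CPM in DMSO, 109.8 and 129.6 under T3 and 128 and 128 under T4. Its fall of 1.20 and 1.11 on the log2 scale had adjusted p = 5.56e-09 and 2.53e-08. GSTP1 fell less, by 0.53 and 0.34, from 921 and 1062 CPM to 676 and 700.4 under T3 and 832 and 738 under T4. The FPKM ratio of GSTP1 to GSTA1 and GSTA2 was accordingly 1.45 and 0.951 under T3 and 0.943 and 0.789 under T4, above both DMSO values. GSTA4 and GSTO1 gave log2 fold changes of -0.83 and -0.34 under T3 and of -0.69 and -0.22 under T4. GSTO1 was no longer called under T4 without DMSO replicate 2 (adjusted p = 0.147) or T4 replicate 2 (0.129).

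Of the other phase 1 enzymes, 8 of 9 tested members fell under each hormone. The share of all tested genes that fell was 27.3% under T3 and 21.9% under T4. ALDH1L1, which oxidises 10-formyltetrahydrofolate, was at 67.7 and 66.1 CPM in DMSO, 6.65 and 10.8 under T3 and 12.7 and 16.5 under T4. It was 7.64-fold lower under T3 (adjusted p = 5.77e-10) and 4.58-fold lower under T4 (adjusted p = 1.12e-08), the smallest p of any member under either hormone. ALDH1L1 has antisense genes that reads without strand could come from. EPHX1 was at 118 and 154 CPM under T3 and 203 and 206 under T4, 3.16-fold and 2.1-fold below DMSO (adjusted p = 2.02e-09 and 3.14e-07). ADH4 was at 0.958 and 0.931 CPM under T3 and 1.54 and 1.82 under T4, against 8 and 9.72 in DMSO, a log2 fold change of -3.22 and -2.39 (adjusted p = 8.7e-08 and 1.3e-06). Under T3 it came close to its day 7 level of 0.482 and 0.337 CPM, though still above it. ADH6, ALDH3A1, AOX1 (aldehyde oxidase), CES1 and FMO5 gave -3.77, -2.78, -1.77, -1.35 and -1.20 on the log2 scale under T3. ALDH3A1 also fell under T4 (-1.70), a call that ended without either DMSO library (adjusted p = 0.0549 and 0.224) or T4 replicate 1 (0.318). The exception was CES2, the carboxylesterase abundant in gut, at 38.5 and 39.8 CPM in DMSO, 37.3 and 36 under T3 and 40.5 and 36.6 under T4, with intervals of -0.25 to 0.06 and -0.17 to 0.13.

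All 3 sulfotransferases fell under T3, beside 27.3% of all tested genes, SULT1E1 being one that passed the filter through DMSO alone. SULT1A1 went from 142 and 152 CPM in DMSO to 45.7 and 65.8 under T3 and 95.6 and 97.7 under T4, a fall of 1.4 and 0.60 on the log2 scale (adjusted p = 1.81e-07 and 0.000654). SULT1A2, SULT1A3 and SULT1A4 are close relatives, and with the reads of all SULT1A genes summed the values were -1.54 and -0.79, both called. SULT2A1 was at 48 and 70.6 CPM under T3 and 67.7 and 71.4 under T4 against 81.2 and 86.2. It fell under T3 (-0.50, adjusted p = 0.00303) and was not called under T4 (-0.27, interval -0.52 to -0.01). SULT1E1, the estrogen sulfotransferase, had 1.88 and 1.46 CPM in DMSO, 0 in both T3 libraries and 0.114 and 0.341 CPM under T4. It was at least 18.8-fold lower under T3 at a floor of 3 counts over the group (adjusted p = 9.38e-06) and 7.14-fold lower under T4 (adjusted p = 0.000356).

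Of the glucuronosyltransferases both UGT1A members rose at day 19. The UGT1A genes share their last exons on chromosome 2 and end together at base 233773300, with UGT1A1 starting at 233760270 and UGT1A6 at 233691702 (GRCh38). UGT1A1 was at 14.3 and 13.7 CPM in DMSO, 68.1 and 88.1 under T3 and 46.9 and 42.1 under T4, 5.58-fold and 3.17-fold higher (adjusted p = 4.32e-08 and 5.13e-06). UGT1A6, which acts on simple phenols, was at 3.27 and 2.79 CPM in DMSO, 19.1 and 28 under T3 and 15.3 and 13.7 under T4, 7.76-fold and 4.77-fold higher (adjusted p = 1.54e-07 and 6.06e-06). Both were above DMSO in all 4 hormone libraries. Because reads of the shared exons are divided by estimate, the locus was also summed: it held 18.1 and 17.3 CPM in DMSO, 121 and 163 under T3 and 75 and 70.0 under T4 (log2 fold change 3.0 and 2.03, adjusted p = 6.55e-11 and 1.06e-08). With DESeq2's Wald test, UGT1A1 kept its direction under both hormones but was no longer called (adjusted p = 0.146 under T3 and 0.404 under T4). UGT2B7 and UGT2B10 passed the filter through day 19 DMSO alone, so a lower level under hormone was built in for both. UGT2B7, which conjugates morphine, was at 2.91 and 3.28 CPM in DMSO, 0.18 and 0.465 under T3 and 0.285 and 0.568 under T4 (-3.23 and -2.84 on the log2 scale). UGT2B10 gave -2.27 and -3.27, and its T3 call ended without DMSO replicate 1 (adjusted p = 0.0561).

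Of the P450 genes, 5 of 13 were higher and 2 lower under T3, and 4 were higher and 1 lower under T4. Over all tested genes, 25.1% were higher and 27.3% lower under T3, and 21% and 21.9% under T4. CYP2J2, an epoxygenase of arachidonic acid, was at 6.24 and 5.47 CPM in DMSO, 20.9 and 20.9 under T3 and 14.5 and 15 under T4, 3.57-fold and 2.52-fold higher (adjusted p = 4.78e-08 and 3.05e-06). CYP2C18, a CYP2C form scarce in adult liver, was at 6.42 and 9.05 CPM in DMSO, 28 and 22.3 under T3 and 17.2 and 18.9 under T4, 3.25-fold and 2.34-fold higher. CYP2B6, which metabolises bupropion and efavirenz, rose under T3 from 0.909 and 1.03 to 3.47 and 4.48 CPM (adjusted p = 0.00205) and was not called under T4 at 1.88 and 2.5 CPM (log2 fold change 1.17, interval 0.10 to 2.24). CYP2S1 rose by 0.20 and 0.38 on the log2 scale, less than at day 7, and its T3 call ended without DMSO replicate 2 (adjusted p = 0.248) or T3 replicate 2 (0.137). CYP2A6 fell under both hormones, from 6.36 and 6.32 CPM to 1.38 and 2.79 under T3 and 2.74 and 3.07 under T4 (-1.60 and -1.12). Its T4 call ended without either DMSO library or T4 replicate 1 (adjusted p = 0.0509 to 0.0882). CYP2C8, CYP2D6, CYP2E1, CYP2W1, CYP3A4 and CYP4A11 were not called under either hormone. POR moved little, at 298 and 300.2 CPM in DMSO, 269 and 279 under T3 and 252 and 258 under T4. Its fall of 0.13 on the log2 scale under T3 (adjusted p = 0.0477) held under 2 of 11 alternatives only and ended without either DMSO library (0.0941 and 0.113) or T3 replicate 1 (0.194), and that of 0.23 under T4 (adjusted p = 0.00191) under 10. NAT2 fell under T3 (-1.53, adjusted p = 0.00411, but 0.0516 without T3 replicate 1) and NAT1 was not called (-0.32, interval -0.83 to 0.19).

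**Figure D5:**
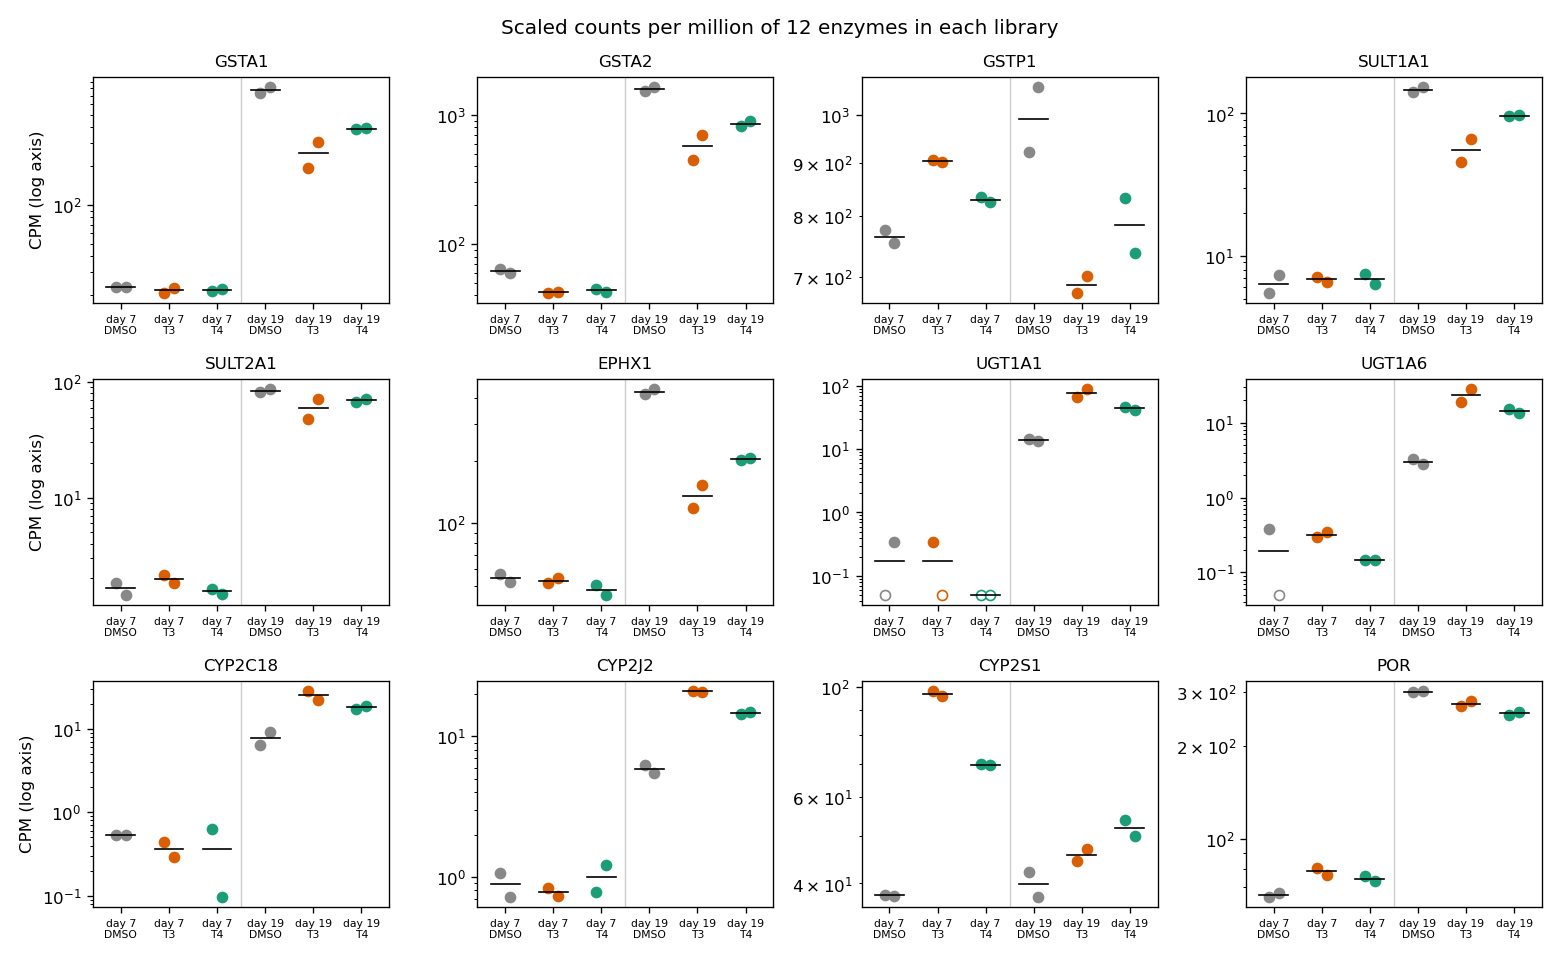
Points give the CPM on log axes of 12 members in each of the 12 libraries (grey DMSO, orange T3, green T4; day 7 left and day 19 right of the line), black lines are group means, and open points at 0.05 stand for libraries at 0. UGT1A1, UGT1A6, CYP2C18 and CYP2J2 are highest under T3 at day 19, GSTA1, GSTA2, SULT1A1 and EPHX1 are highest in DMSO at day 19, and CYP2S1 is highest under T3 at day 7.

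The 2 T3 libraries of day 19 differed more over the members than those of any other group. The second was higher than the first for 24 of 27 members above 1 CPM, with a median ratio of 1.303, whereas the median ratio of the other groups was 0.957 to 1.059. Leaving out either library gave 29 or 31 called members under T3, against 30 with both. ADH6, ALDH3A1 and UGT2B10 stayed below 3 CPM in all day 19 libraries.

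T4 was set against T3 at matched dose and day, over 38 members on each of 2 days, 76 pairs in all, with p adjusted over all tested genes. At day 7 a single pair was called: CYP2S1 was lower under T4, at 69.7 and 69.5 CPM against 98 and 95.8 (log2 difference -0.48, interval -0.61 to -0.34, adjusted p = 0.00175), beside 0.326% of all tested genes lower and 0.0387% higher. That call ended without T3 replicate 1 or without either T4 library (adjusted p = 0.0554 to 0.0603) at a difference of -0.46 to -0.48. Of the 37 pairs not called at day 7, 18 had an interval within a 2-fold difference either way and 19 a wider one. The 18 included POR (-0.20 to 0.04), GSTP1 (-0.27 to 0.02) and EPHX1 (-0.37 to 0.08).

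At day 19 the forms differed for 11 members, 8 higher and 3 lower under T4, where 7.42% and 8.31% of all tested genes were called. The median difference of all 38 tested members was 0.19, against 0.01 over all genes. It was 0.015 without T3 replicate 1 and 0.54 without T3 replicate 2. SULT1A1 gave the smallest p, with 95.6 and 97.7 CPM under T4 and 45.7 and 65.8 under T3 (1.73-fold, standard error on the log2 scale 0.122, adjusted p = 0.000571). EPHX1 was 1.5-fold, GSTA1 1.56-fold, GSTA2 1.49-fold and ALDH1L1 1.67-fold higher under T4 (adjusted p = 0.000772, 0.00615, 0.0101 and 0.00859). For each of these the T4 libraries lay between the T3 and the DMSO libraries. UGT1A1 was lower under T4, at 46.9 and 42.1 CPM against 68.1 and 88.1 (-0.81, interval -1.14 to -0.48, adjusted p = 0.00288), and so was the summed UGT1A locus (-0.97, adjusted p = 3.92e-05). UGT1A6 (-0.70) and CYP2J2 (-0.50) were also lower, and ADH6 (2.22), FMO5 (0.50) and SULT1E1, at 0 under T3, higher.

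Among the 27 pairs not called at day 19, 16 had an interval within 2-fold, such as CYP3A7 (-0.51 to 0.29), MGST1 (-0.07 to 0.26), GSTP1 (0.04 to 0.34) and SULT2A1 (-0.03 to 0.49). The other 11 were wider, such as CYP2B6 (-1.74 to 0.02) and NAT2 (0.03 to 1.78). The count of 11 called members rested on the libraries and the fit: it was 6 without T3 replicate 1, 15 without T3 replicate 2, 8 without T4 replicate 1 and 5 without T4 replicate 2, and 5 in a fit to day 19 alone, where 2 were higher and 3 lower. SULT1A1 and EPHX1 were called under all alternatives run. The UGT1A1 call ended with DESeq2's Wald test (adjusted p = 0.8) and with limma on FPKM (0.343). That of GSTA1 ended in the edgeR fit to day 19 alone (adjusted p = 0.0521). Leaving out single libraries did not end the call of UGT1A1 or GSTA1 and raised the adjusted p of the other 7 called members above 0.05 in 1 to 3 of 4 cases.

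The effect of hormone differed between the days for a large part of the members. By the interaction test, the T3 effect was lower at day 19 than at day 7 for 17 members and higher for 2, beside 20.9% and 17.1% of all tested genes. For T4, 14 were lower and 1 higher, beside 15.3% and 12.4%. The lower ones include SULT1E1 for T3 and SULT1E1 and UGT2B10 for T4. These passed the filter through day 19 DMSO alone, so a lower effect at day 19 was built in for them. MGST1 was at 64.3 and 64.7 CPM in DMSO and 71.1 and 75.6 under T3 at day 7, and at 261 and 289.9 in DMSO and 109.8 and 129.6 under T3 at day 19, a difference of -1.39 between the log2 effects (adjusted p = 2.36e-07). CYP2S1, higher under T3 on both days, had an effect that was -1.16 at day 19 relative to day 7 (adjusted p = 3.38e-07). GSTP1 and POR, higher under T3 at day 7 and lower at day 19, differed by -0.77 and -0.38 (adjusted p = 2.33e-05 and 0.000999). UGT1A1 and UGT1A6, nearly silent at day 7, were not called, whereas their summed locus was, at 2.83 for T3 and 3.15 for T4 (adjusted p = 0.00458 and 0.00752).

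The step from day 7 to day 19 was also read under each hormone. From day 7 to day 19 under T3, 23 members were higher and 9 lower, beside 35.2% and 37.9% of all tested genes, with a median of 1.46 (1.36 with UGT2B10 and SULT1E1 at their bounds). Under T4, 22 were higher and 7 lower, beside 35.5% and 36.4%, with a median of 1.86. Of the 24 members that reached the filter's minimum in a day 7 group, 12 were higher and 7 lower under either hormone, with medians of 0.73 under T3 and 0.73 under T4. POR rose by 1.80 under T3 and 1.78 under T4, where the DMSO cells had 2.18. CYP2J2 rose by 4.72 and 3.87, SULT2A1 by 4.90 and 5.49, GSTA1 by 3.52 and 4.15, and GSTA2 by 3.76 and 4.28. UGT1A1, at 0 in both T4 libraries of day 7, was 605-fold higher at day 19 under T4 at a floor of 3 counts over the group. That value rests on how reads shared by the UGT1A genes were divided, and UGT1A1 passed the filter at day 19 only. UGT1A6 held 3.29 and 3 expected counts in the same day 7 libraries. With the UGT1A locus summed, the rise under T4 was 8.49 on the log2 scale (adjusted p = 6.33e-13). ALDH1L1 and ADH6, which rose in DMSO, were not called from day 7 to day 19 under T3 (-0.37, interval -0.74 to -0.00, and -0.71, -2.24 to 0.83). AOX1, higher at day 19 in DMSO by 0.43, fell under T3 by 1.08 and under T4 by 0.61. Its DMSO call ended without any one library (adjusted p = 0.068 to 0.132), and its T4 call without the first T4 library of day 7 (0.0925).

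Other genes of the same reactions were read from lists of related genes. Of 21 sensors and liver regulators 20 were tested, and at day 19 13 fell and 5 rose under T3 (median -0.67) and 11 fell and 4 rose under T4, where 27.3% of all tested genes were lower and 25.1% higher under T3 and 21.9% and 21% under T4. NR1I3, the receptor CAR that switches on CYP2B6 and UGT1A1, was at 6.3 and 6.01 CPM in DMSO, 0.359 and 0.582 under T3 and 0.856 and 0.853 under T4 (log2 fold change -3.69 and -2.84). NR1I2, the receptor PXR, stayed at or below 0.588 CPM in all libraries and was not called in any hormone comparison. HNF4A, a hepatocyte factor, fell by 1.96 under T3 and 1.42 under T4, whereas CEBPB rose by 1.85 and 1.42. In DMSO, 13 of the 20 rose and 3 fell between the days, beside 37.6% and 34.9% of all tested genes.

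Of 9 genes for microsomal electron transfer and heme, POR among them, 5 fell and 3 rose under T3 at day 19, with a median of -0.13 against -0.03 over all tested genes, of which 27.3% fell and 25.1% rose. CYB5A, the cytochrome b5 that assists several P450 enzymes, fell by 0.96 and HMOX1, which breaks heme down, rose by 1.90. Of 11 genes that supply cosubstrates, 5 fell and 2 rose under T3, also with a median of -0.13. UGDH and SLC35D1, which make UDP-glucuronic acid and carry it into the endoplasmic reticulum, fell by 0.98 and 1.03, and PAPSS2, which makes the sulfate donor, by 0.94. At day 7 under T3, 2 of these 11 rose, 3 fell and 6 were not called, with a median of -0.09, beside 9.43% and 6.54% of all tested genes. UGP2, which makes UDP-glucose, rose there by 1.08 and PAPSS2 by 0.72.

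Among 61 tested of 67 further enzymes of these families, 37 fell and 8 rose under T3 at day 19, with a median of -0.62, and 36 fell and 8 rose under T4, with a median of -0.51. Over all tested genes, 27.3% fell and 25.1% rose under T3 and 21.9% and 21% under T4. FMO1, the flavin monooxygenase of fetal liver, was at 15.6 and 18.2 CPM in DMSO, 0.599 and 0.814 under T3 and 1.6 and 1.99 under T4. MAOB, AKR1D1 and EPHX2 fell under T3, with log2 fold changes of -3.12, -2.77 and -2.34. AKR1B1, which reduces aldehydes and glucose, rose by 1.33. Between the days in DMSO 39 of the 61 rose and 14 fell, beside 37.6% and 34.9% of all tested genes, MAOA by 6.23 and AKR1C1 by 4.05 on the log2 scale.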

How the data were processed

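RNA of 12 libraries, 2 for each day and agent, was sequenced. Per the submitters' processing notes, the authors used HISAT, Bowtie2 and RSEM with genome build hg38; their versions and the strand of counting are not given in the sources used here. The deposited tables hold, per transcript, the authors' expected counts (estimated from reads that genes may share) and FPKM, and list only transcripts at 0.01 FPKM or more. Transcripts were summed by gene here, and rows were named through RefSeq, which matched 23801 of 23922 genes (121 were not matched). The members, lists and naming rule were chosen with earlier results of these data known.

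Expected counts, rounded to whole numbers, were fitted in edgeR 4.0.16 (R 4.3.3) with TMM scaling, edgeR's expression filter and the quasi-likelihood test over all 6 groups, with Benjamini-Hochberg adjustment over 18101 genes and a threshold of 0.05. Totals of 18363549 to 19306181 counts set the precision, and 3 counts over a group was taken as the floor for a group at 0. Alternatives were DESeq2 1.42.0, its size factors, limma 3.58.1 on log2(FPKM + 0.1), no filter, libraries of 1 day, leaving out the 10 most abundant genes or each library, and the replicate number as a block. Sums over near-identical genes were added after seeing the data. Python 3.11.15, pandas 2.3.3, numpy 2.4.6, scipy 1.17.1 and biopython 1.88 served for tables, intervals and promoters (RefSeq, GRCh38.p14). The test was tried on simulated data.

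Library values are given for the fetal and adult forms, POR, up to 6 members of smallest adjusted p in each comparison (at least 1 CPM in a group, replicates not overlapping) and members at 0 in a group and above 5 CPM in another. Members and listed genes described beyond that rule, such as CYP2S1, CYP2D6, CYP2C18, UGT1A6, SULT1E1 and CES2, were chosen after their values were seen. Correlations of replicate differences between groups were -0.242 to 0.318, and no label names a source that equal numbers share, so numbers were not taken as pairs.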

Additional observations from a re-analysis of the deposited data

Results flagged for a closer look

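The response to hormone differed between day 19 and day 7 for 19 of 38 tested members under T3 and 15 under T4, by the interaction term of edgeR's quasi-likelihood test. Over all tested genes the effect was lower at day 19 for 20.9% and higher for 17.1% under T3, and for 15.3% and 12.4% under T4. Each value in parentheses is the log2 effect of the hormone at day 19 minus that at day 7, and a negative value means a lower effect at day 19. For T3 these were, in phase 1, CYP2C18 (2.22), CYP2J2 (2.02), CYP2S1 (-1.16), POR (-0.38), ADH4 (-3.16), ADH6 (-2.61), ALDH1L1 (-2.75), ALDH3A1 (-3.45), FMO5 (-0.83), EPHX1 (-1.62) and AOX1 (-1.51). In conjugation they were SULT1A1 (-1.50), GSTA1 (-1.55), GSTA2 (-0.91), GSTA4 (-0.91), GSTP1 (-0.77), GSTO1 (-0.30) and MGST1 (-1.39). The adjusted p of these T3 values was 2.36e-07 to 0.0224. For T4 the phase 1 members were CYP2J2 (1.16), CYP2S1 (-0.50), POR (-0.40), CES1 (-2.23), ADH4 (-2.04), ALDH1L1 (-2.12), EPHX1 (-0.89) and AOX1 (-1.04). The conjugating members were SULT1A1 (-0.71), SULT1E1 (-2.62), GSTA1 (-0.92), GSTA4 (-0.68), GSTP1 (-0.45) and MGST1 (-1.31). The adjusted p of these T4 values was 9.97e-07 to 0.0414. For SULT1E1 under T3, at 0 in both day 19 libraries, the fitted value was -7.76 (adjusted p = 0.000516), and for UGT2B10 under T4, at 0 in both day 7 DMSO libraries, it was -6.85 (adjusted p = 0.0147). These 2 depend on the prior count of the fit and are no bounds. SULT1E1 and UGT2B10 passed the filter through day 19 DMSO alone, so a lower effect at day 19 was built in for them. The T3 and T4 values of a day share the DMSO libraries. CYP2J2 under both hormones and CYP2C18 under T3 were the members whose effect was higher at day 19, and CYP2S1 was higher than DMSO on both days under both hormones with the higher effect at day 7. Leaving out single libraries ended the T3 calls of ADH6, ALDH3A1, CYP2C18, FMO5 and GSTO1 (adjusted p up to 0.121) and the T4 calls of ADH4, CES1, CYP2J2, SULT1A1, SULT1E1 and UGT2B10 (adjusted p up to 0.264).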

How the results depend on the processing

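Of 201 calls, tried under 2353 alternative values in all, 2200 values held, 152 ended the call and 1 reversed it. Between the days in DMSO, 30 of 33 calls were ended by no alternative run, but these include GSTP1, the call that was reversed. Calls that held under all alternatives run numbered 25 of 30 for T3 and 20 of 26 for T4 at day 19. They numbered 1 of 4 for T3 and 1 of 1 for T4 at day 7, and 2 of 11 for T4 against T3 at day 19. With 2 libraries a group and 1 cell line, members of under 1 CPM have wide intervals.

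For T4 against T3 at day 19, 11 members were called, against 6 with DESeq2's Wald test (5 higher and 1 lower), 5 with the libraries of that day alone (2 higher and 3 lower, in place of 8 and 3) and 5 to 15 without single libraries. With T3 at day 7 the count of 4 was 2 with limma on FPKM and 1 to 2 without single libraries. With T4 at day 7 the count of 1 was 8 with day 7 libraries alone and 1 to 2 without single libraries. The day 7 fit called 3460 of 17203 genes for T4, against 1162 of 18101 in the main fit. For T4 against T3 at day 7 the count of 1 was 3 with day 7 libraries alone and 0 to 1 without single libraries. Over all genes the day 7 fit called 435 of 17203, against 66 of 18101 in the main fit. The mean log2 ratio of CYP3A7 to CYP3A4 at day 19 was 3.50 under T3 and 3.8 under T4 with 0.01 added to FPKM, against 3.13 and 3.34. The cause of these changes was not tested.

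Limma on FPKM reversed the change between the days in DMSO for CYP2S1 (-0.33, adjusted p = 0.000842, against 0.08, not called) and GSTP1 (-0.0303, adjusted p = 0.71, against 0.37). In place of FPKM, CPM reversed 2 log2 ratios under T3 at day 19: CYP3A7 to CYP3A5 (0.07 against -0.32) and GSTP1 to GSTA1 and GSTA2 (-0.22 against 0.23). On FPKM the median of all genes moved to -0.38 (days in DMSO), -0.33 and -0.26 (days under T3 and T4) and 0.12 (T4 at day 19). The share of higher among all called genes was then 33% in place of 51.9% (days in DMSO), 35.3% in place of 48.1% (days under T3), 37.4% in place of 49.4% (days under T4), 67.2% in place of 48.9% (T4 at day 19), 68.4% in place of 47.2% (T4 against T3 at day 19), and 57.6% and 68.2% in place of 45% and 44.8% (T3 and T4 effects between the days). The share of higher among called members was 100% in place of 72.7% for T4 against T3 at day 19, 100% in place of 75% for T3 at day 7 and 29.4% in place of 6.67% for the T4 effect between the days.

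With the replicate block, the count was 29 in place of 30 for T3 at day 19, 28 in place of 29 between the days under T4 and 20 in place of 19 for the T3 effect between the days, and was equal in the other 8 comparisons.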
